A study of Mus musculus with 6 samples.

Results

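The genes described here are 29 DNA repair and replication checkpoint genes, read from RNA-seq of the anterior nasal septum, a plate of cartilage that divides the nose. They were listed by name, with earlier results of these data known. They were 29 of the 38924 genes counted, and all 29 were found. They fall into 5 pathways: homologous recombination (9 genes), the Fanconi anemia pathway (7), base excision repair (4), mismatch repair (1) and the ATR and ATM checkpoints with fork protection (8). Cartilage was taken by laser from frozen sections of mouse embryos at embryonic day 14.5 (E14.5), all of strain C57BL/6. The 2 groups were 3 wild-type embryos (WT) and 3 embryos of genotype Fgfr2+/S252W; EIIA-Cre (Apert). The Apert embryos carry 1 mutant allele of Fgfr2, which encodes a receptor for fibroblast growth factors, as a model of Apert syndrome. EIIA-Cre is a Cre recombinase transgene driven by an adenoviral promoter that is active in the early embryo, so the mutation is not limited to cartilage. Whether the WT embryos carried a Cre transgene is not given in the sources used here. The comparison asks how transcript levels in this cartilage differ between the genotypes.

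Dividing cells copy their DNA in S phase, and the proteins encoded by these genes protect and mend it. Homologous recombination repairs double-strand breaks from the sister chromatid, and the Fanconi anemia proteins open crosslinks between strands. Base excision repair removes damaged bases, mismatch repair removes copying errors, and the ATR kinase holds back the cell cycle while replication forks are stalled. Many of these genes are transcribed mainly around S phase, and many of those are targets of the E2F transcription factors. In bulk tissue such as this, more cells of a kind and more RNA per cell cannot be told apart.

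Only 1 of the 29 genes, the DNA glycosylase gene Neil3, rose past the test in Apert cartilage, and none fell. Of the 29, 27 had counts high enough to be tested. Their log2 fold changes (Apert over WT) had a median of 0.49 against 0.01 over all 13333 genes tested, and 25 of the 27 were above 0, as were 51.1% of all genes tested. Tested with edgeR's quasi-likelihood test and Benjamini-Hochberg adjustment over all genes, 0.398% of genes rose and 0.0525% fell (0.45% in all) at an adjusted p below 0.05. Without adjustment, 12 of the 27 members had p below 0.05, all of them higher in Apert, where 6.35% of all genes tested did so in that direction and 5.01% in the other. In 8 of the 27 the 3 Apert libraries all lay above the 3 WT libraries (Neil3, Tipin, Chek1, Atr, Topbp1, Brca1, Brca2 and Fancb), against 8.92% of all genes tested. None of the 27 lay wholly below, where 7.70% of all genes did. These counts describe the members and are not a test of the list. DESeq2 called 3 of the members, Neil3, Tipin and Chek1, where it called 1.21% of all genes higher. It gave no adjusted p for 7 members. The edgeR fit with no expression filter called 4 members against 0.665% of all genes higher, that with the replicate number as a block 2 against 0.96%, and that with a correction for GC content 0 against 0.0227%. With that correction 8 members had unadjusted p below 0.05, as did 1049 of the 13192 genes tested in that fit, in either direction.

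**Figure D1:**
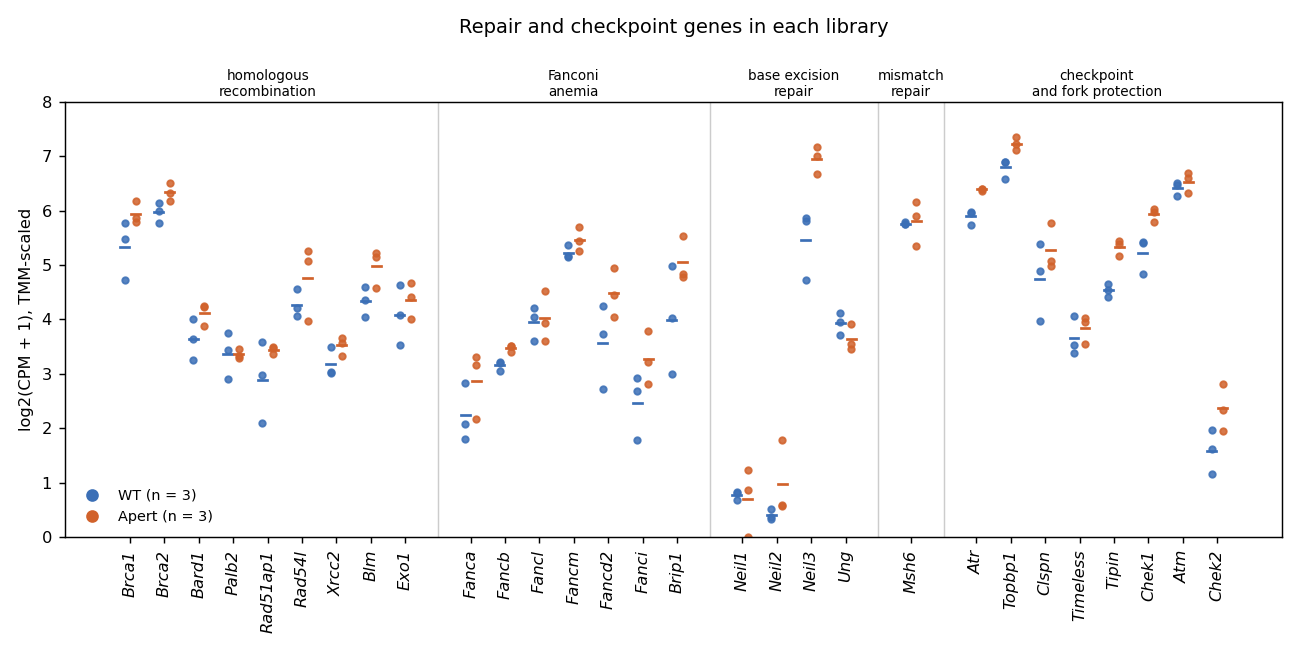
Level of each of the 29 genes in each library, as log2(CPM + 1) with TMM scaling (points: libraries; short lines: group means on this scale; 3 WT and 3 Apert). Neil3 has the largest log2 fold change of the tested genes (1.44), while Neil1 and Neil2 lie near the bottom of the scale in both.

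Total counts ran from 8631181 to 10834744 in WT and from 6760510 to 10527915 in Apert, so that 3 counts were worth 0.261 to 0.487 CPM, each count being divided by its TMM-scaled library total. The mitochondrial genome took 28.8% to 30.2% of counts in WT and 34.3% to 40.4% in Apert, and 18687 to 18942 genes were detected in WT against 18245 to 18529 in Apert. Both measures of the RNA differ between the groups without overlap, and their part in the results below was not tested. The S252W change alters the coding sequence and leaves the exons of Fgfr2 in place, so counts per gene do not check the genotype labels. The labelled tissue was checked by 16 cartilage markers, among them Col2a1, Acan and Sox9, which summed to 38610 to 49630 CPM in WT and 39660 to 43010 CPM in Apert.

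Promoter sequences are shown for Neil3, the gene that rose, and for the members whose promoters held an E2F element. RefSeq promoters (GRCm38.p6, from 250 bases before to 50 after the start of transcription) were matched for 24 of the 29 genes. Exo1, Fancd2, Neil2, Tipin and Xrcc2 had none. The E2F elements TTTCCCGC and TTTGGCGC were searched on both strands, as was TTTGAA, the core of the cell cycle homology region found before many genes of G2 phase and mitosis. The first was in the promoters of 4 of the 24 genes, Bard1, Brca2, Chek2 and Msh6, and in those of 1.24% of all 27025 genes in the table. TTTGGCGC was in none of the 24 and in 0.585% of all genes, and TTTGAA was in 1, Bard1, and in 20.2% of all genes. The 100 bases before the start of Neil3 (chr8:53639066-53639165, minus strand) had a GC content of 64.0% and held none of the 3 motifs. The other windows are chr1:71103148-71103207 (minus strand) for Bard1, chr5:150522427-150522486 (plus strand) for Brca2 and chr5:110839805-110839864 (plus strand) for Chek2, with the element in capitals. In Brca2 and Chek2 it reads on the strand opposite to the gene and so appears as its reverse complement. Each is written 5′ to 3′ on the strand of its gene, and none overlaps an exon of the count files. In Msh6 the element lies after the start and is not shown. A match is a run of letters, and no binding was measured.
Neil3: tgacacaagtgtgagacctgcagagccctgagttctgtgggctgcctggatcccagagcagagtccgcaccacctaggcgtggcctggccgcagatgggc
Bard1: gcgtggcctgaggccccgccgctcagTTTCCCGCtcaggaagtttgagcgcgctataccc
Brca2: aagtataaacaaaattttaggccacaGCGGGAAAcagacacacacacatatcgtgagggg
Chek2: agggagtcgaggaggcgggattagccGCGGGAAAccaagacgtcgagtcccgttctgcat

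Among the genes of base excision repair, Neil3 rose and the others did not pass or could not be tested. Neil3 encodes a glycosylase of the Nei family that removes oxidised bases from single-stranded DNA and takes part in the repair of crosslinks, and it is known for expression in dividing cells. It was at 25.4, 57.1 and 54.8 CPM in the WT libraries and at 101, 143 and 128 CPM in the Apert libraries, given here and below in the order of their replicate numbers. Every Apert library was above every WT library, and WT replicate 1 was less than 0.5 times either other WT library. The mean went from 45.8 ± 17.7 to 124 ± 21.7 CPM (SD, n = 3 each), a 2.71-fold rise (log2 fold change 1.44, standard error 0.24, edgeR adjusted p = 0.0110). Its log2 fold change stayed between 1.15 and 1.63 under every alternative run. The call ended with a correction for GC content (1.23, adjusted p = 0.0796) and without WT replicate 3 (1.59, 0.0510), Apert replicate 2 (1.31, 0.189) or Apert replicate 3 (1.4, 0.0618). In the same order, these fits called 4, 0, 2 and 11 of all genes. The unadjusted edgeR p of Neil3 in them was 1.23e-04, 3.12e-05, 3.62e-04 and 7.87e-05, against 9.87e-06 as reported. Neil3 lies at chr8:53586867-53639065 (mm10, minus strand) and shares no exon with another gene of the count files. Its longest transcript has a GC content of 41.5%, where the median of all genes tested was 48.9%.

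Ung, the glycosylase that removes uracil from DNA, was at 12.1, 14.5 and 16.4 CPM in WT and at 10.7, 9.96 and 14.0 CPM in Apert. Its groups overlapped and its log2 fold change was -0.31 (standard error 0.26, adjusted p = 0.702), below 0 in each alternative. Neil1 and Neil2 encode the other 2 glycosylases of the Nei family listed here, and neither passed the filter on low counts. Neil1 had 7, 8 and 7 counts in WT and 0, 10 and 5 counts in Apert, where the count of 0 allows up to 0.298 CPM in that library. Neil2 had 3, 3 and 4 counts in WT and 5, 18 and 3 counts in Apert. Scaled to CPM, the Apert libraries of Neil2 lay above the WT libraries, by 0.487 against 0.434 CPM at the nearest, a gap of less than 1 count. Fitted with no filter, the log2 fold change was -0.05 for Neil1 (unadjusted p = 0.965) and 1.73 for Neil2 (unadjusted p = 0.111, adjusted p = 0.664). Per kilobase of exon, the level of Neil3 in WT was 8.64 ± 3.34 CPM, that of Neil1 0.610 ± 0.0782 CPM and that of Neil2 0.170 ± 0.0480 CPM. In Apert it was 23.4 ± 4.09 CPM for Neil3, 0.620 ± 0.587 CPM for Neil1 and 0.594 ± 0.587 CPM for Neil2, so Neil3 was the highest of the 3 in both genotypes.

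The checkpoint genes lay higher in Apert cartilage in 8 of 8 cases, as did 51.1% of all genes tested, but none passed the test. At unadjusted p below 0.05 there were 4 (Tipin, Chek1, Atr and Topbp1), against 6.35% of all genes tested in that direction. The median log2 fold change of the 8 was 0.49. Tipin, the partner of Timeless in the complex that travels with and stabilises the replication fork, came closest. It was at 24.2, 20.3 and 22.2 CPM in WT and at 40.8, 34.7 and 42.4 CPM in Apert, so the groups were well apart and the libraries of each group were alike. The means were 22.3 ± 1.98 and 39.3 ± 4.08 CPM (SD, n = 3 each; log2 fold change 0.82, standard error 0.19, edgeR adjusted p = 0.0708). Over all alternatives the log2 fold change of Tipin ran from 0.60 to 0.89 and its adjusted p from 0.00526 (DESeq2) to 0.312 (with GC correction). Timeless itself was at 10.5, 9.37 and 15.8 CPM in WT and at 15.2, 14.5 and 10.7 CPM in Apert, and its groups overlapped (log2 fold change 0.19, standard error 0.28, adjusted p = 0.852, and 0.04 to 0.44 without single libraries). Whether these partners differ in their change was not tested.

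Chek1, the effector kinase that ATR activates, was at 27.5, 41.6 and 41.8 CPM in WT and at 64.4, 62.2 and 54.1 CPM in Apert. The groups did not overlap, and the log2 fold change was 0.71 (standard error 0.19, adjusted p = 0.125, and 0.0295 by DESeq2). With GC correction the value for Chek1 was 0.48 (adjusted p = 0.495), and with totals alone 0.55 (0.205). Atr, the kinase itself, was at 62.1, 52.4 and 61.3 CPM in WT and at 83.8, 81.6 and 83.7 CPM in Apert. Its 3 Apert libraries were nearly equal and above all WT libraries (0.50, standard error 0.15, adjusted p = 0.187). With GC correction the value for Atr was 0.28 (adjusted p = 0.652). Topbp1, which activates ATR at stalled forks, was at 95.2, 118 and 118 CPM in WT and at 162, 137 and 148 CPM in Apert (0.43, standard error 0.15, adjusted p = 0.253). It too had no overlap between the groups. Atr shares 4.19% of its exon bases with 2 other genes, 1700065D16Rik and Gm16794, so part of its count is uncertain.

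The remaining checkpoint genes overlapped between the groups. Clspn encodes Claspin, the adaptor through which ATR reaches CHK1. It was at 14.6, 41.0 and 28.8 CPM in WT and at 30.4, 32.6 and 53.9 CPM in Apert (log2 fold change 0.47, standard error 0.30, adjusted p = 0.584). Its WT libraries spanned 2.81-fold, more than the difference between the group means, and its value was 0.15 without WT replicate 1, 0.85 without WT replicate 2 and 0.16 without Apert replicate 3. Atm, the kinase that answers double-strand breaks, was at 75.6 to 90.3 CPM in WT and 78.7 to 102 CPM in Apert (0.12, adjusted p = 0.817). Its value was -0.03 when libraries were scaled by totals alone and -0.06 with GC correction. Chek2, the effector kinase of ATM, was low, at 1.22 to 2.90 CPM in WT and 2.88 to 6.00 CPM in Apert, from 14 to 44 counts a library. Its groups overlapped narrowly, and the log2 fold change was 1.06 (standard error 0.51, adjusted p = 0.456).

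**Figure D2:**
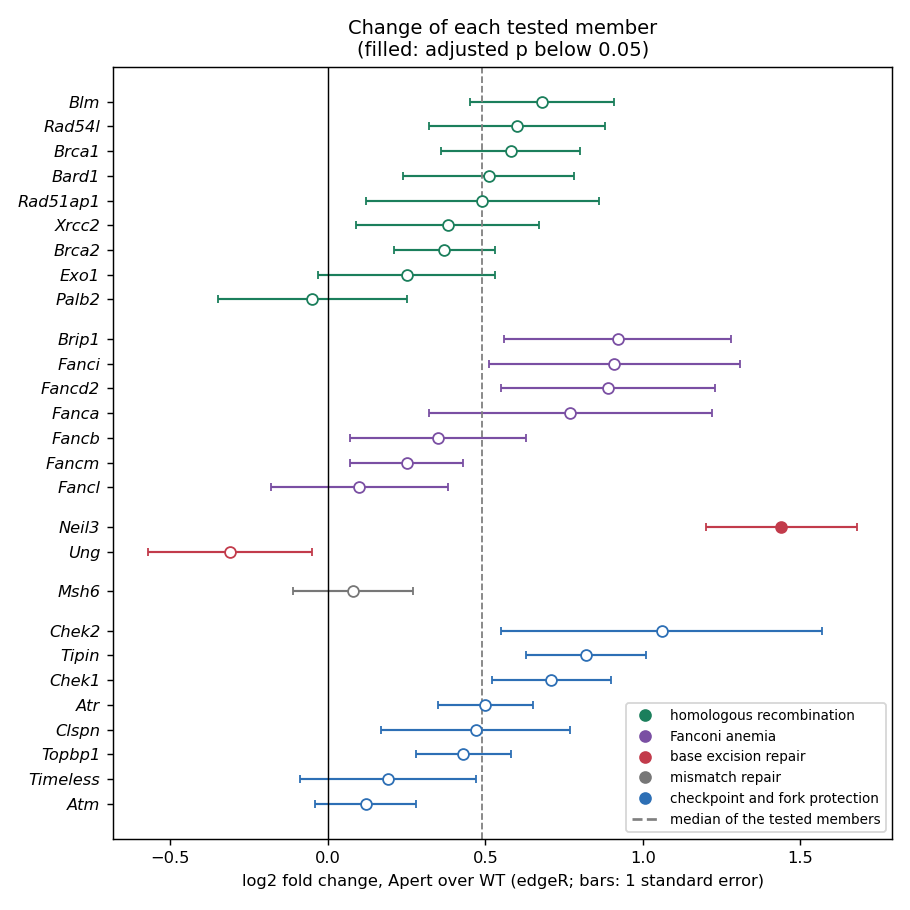
Log2 fold change (Apert over WT) of the 27 tested members, grouped by pathway, with bars of 1 standard error from the edgeR fit of 3 against 3 libraries. The filled point, Neil3 at 1.44, passed an adjusted p of 0.05; Palb2 at -0.05 and Ung at -0.31 are below 0, and the dashed line is the members' median of 0.49.

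In homologous recombination none of the 9 genes passed, and the median log2 fold change was 0.49. Of the 9, 4 had unadjusted p below 0.05 (Blm, Brca1, Brca2 and Rad54l), all higher, against 6.35% of all genes tested in that direction. Blm, the RecQ helicase that takes apart recombination intermediates, was at 15.6, 23.1 and 19.6 CPM in WT and at 22.8, 34.4 and 36.4 CPM in Apert. The lowest Apert library was just under the highest WT library (0.68, standard error 0.23, edgeR adjusted p = 0.253). Brca1, which starts recombination at broken ends as a dimer with Bard1, was at 25.6, 53.3 and 43.4 CPM in WT and at 57.3, 54.4 and 71.0 CPM in Apert. Its groups were separate by a narrow margin, from 53.3 to 54.4 CPM (0.58, standard error 0.22, adjusted p = 0.329), and with single libraries left out the value ran from 0.33 to 0.82. Brca2, a mediator of strand exchange, was at 53.6, 62.7 and 69.2 CPM in WT and at 71.7, 89.8 and 78.8 CPM in Apert (0.37, standard error 0.16, adjusted p = 0.403). Here too the groups did not overlap, and the value was 0.19 with GC correction.

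The other recombination genes overlapped between the groups. Bard1 was at 8.52 to 15.0 CPM in WT and 13.8 to 18.0 CPM in Apert (0.51, adjusted p = 0.496). Palb2, which joins BRCA1 to BRCA2, was at 6.52 to 12.5 CPM in WT and 8.75 to 9.96 CPM in Apert (-0.05, adjusted p = 0.970). Rad54l, a motor protein of strand exchange, was at 15.7 to 22.5 CPM in WT and 14.6 to 37.4 CPM in Apert (0.60, adjusted p = 0.438). It shares 15.4% of its exon bases with Lrrc41, which makes its count uncertain. Rad51ap1 and Xrcc2, both of which assist strand exchange, were at 0.49 and 0.38 on the log2 scale (adjusted p = 0.660 and 0.678). Rad51ap1 was at 0.15 without WT replicate 1 and at 0.97 without WT replicate 2. Exo1, the exonuclease of end resection that also serves mismatch repair, was at 0.25 (adjusted p = 0.782), and at 0.01 and 0.59 without those libraries. Single libraries left out took Bard1 from 0.32 to 0.73 and Rad54l from 0.32 to 0.89.

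Fanconi anemia genes had the highest median of the pathways with more than 2 tested members, 0.77 over 7 genes, and again none passed. At unadjusted p below 0.05 there were 3 (Fancd2, Brip1 and Fanci), all higher, against 6.35% of all genes tested in that direction. The 2 proteins of the central pair, FANCD2 and FANCI, are clamped onto DNA by ubiquitin at a crosslink. Fancd2 was at 5.56, 17.9 and 12.3 CPM in WT and at 15.6, 20.9 and 29.7 CPM in Apert (log2 fold change 0.89, standard error 0.34, adjusted p = 0.324). Fanci was at 2.43 to 6.57 CPM in WT and 6.06 to 12.8 CPM in Apert (0.91, standard error 0.40, adjusted p = 0.407). In both genes the overlap came from WT replicate 2 and Apert replicate 1. Without single libraries the value was 0.54 to 1.31 for Fancd2 and 0.57 to 1.2 for Fanci. Brip1, the helicase also called FANCJ that binds BRCA1, was at 6.95, 30.4 and 15.2 CPM in WT and at 27.7, 26.6 and 45.2 CPM in Apert. Its WT libraries spanned 4.38-fold, the widest range of any tested member, and its groups overlapped. The log2 fold change was 0.92 (standard error 0.36, adjusted p = 0.338), and 0.53 to 1.59 when single libraries were left out.

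The remaining Fanconi genes encode the core complex and its anchor. Fancb, a subunit of the core complex, was at 7.30, 8.31 and 8.14 CPM in WT and at 9.54, 10.4 and 10.4 CPM in Apert. Its groups did not overlap, but the counts were low (64 to 96 a library) and the value of 0.35 had a standard error of 0.28 (adjusted p = 0.690). Fanca, another core subunit, was at 2.5 to 6.09 CPM in WT and 3.48 to 8.87 CPM in Apert (0.77, adjusted p = 0.541, and 0.50 to 1.22 without single libraries). Fancl, the ubiquitin ligase of the core, was at 11.2 to 17.5 CPM in WT and 11.2 to 22.1 CPM in Apert (0.10, adjusted p = 0.925). Its direction turned with totals alone (-0.04) and with GC correction (-0.12). Fancm, the translocase that anchors the core on DNA, was at 34.3 to 40.4 CPM in WT and 37.3 to 50.8 CPM in Apert (0.25, adjusted p = 0.665). Fanci shares 14.9% of its exon bases with Polg, Fancl 13.7% with Vrk2, Fanca 7.68% with Zfp276 and Fancd2 3.24% with Fancd2os. Part of their counts is therefore uncertain, and these shares do not give how much.

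Mismatch repair is represented by Msh6, which takes part in recognising mispaired bases. Msh6 was at 52.7, 53.1 and 54.0 CPM in WT, the tightest WT group of all members, and at 70.5, 40.0 and 58.6 CPM in Apert. The Apert libraries thus lay on both sides of the WT libraries (0.08, standard error 0.19, adjusted p = 0.912). Its value was -0.08 with scaling by totals alone.

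Levels between genes can be compared per kilobase of exon. On that scale Topbp1 was the most abundant member in WT, at 21.1 ± 2.51 CPM per kilobase, followed by Tipin at 18.4 ± 1.63, Msh6 at 12.5 ± 0.165, Neil3 at 8.64 ± 3.34 and Atm at 8.17 ± 0.752 (SD, n = 3). In Apert the same measure was 32.4 ± 3.37 for Tipin, 28.5 ± 2.39 for Topbp1 and 23.4 ± 4.09 for Neil3. Fanca, at 0.463 ± 0.224 CPM per kilobase in WT, was the lowest of the tested members. The BRCA genes were in the middle of the order in WT, Brca2 at 5.77 ± 0.732 and Brca1 at 4.81 ± 1.66, and Atr was at 7.26 ± 0.670. Of the effector kinases, Chek1 was at 7.98 ± 1.76 and Chek2 at 0.916 ± 0.374.

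Much of the variation of the members was between the WT libraries. WT replicate 1 was the lowest WT library in 22 of the 27 tested members, where it was lowest in 33.2% of all genes tested. The median ratio over the members was 1.51 for WT replicate 2 over 1 and 1.39 for WT replicate 3 over 1. The highest WT library was 2 times the lowest or more in 10 of the 27, and the highest Apert library was so in 4. The share of all genes with such a span was not counted. Some of these members rest on few counts, such as Chek2 with 14, 30 and 19 in WT. Averaged over the tested members, the log2 deviation from the mean over 6 libraries was -0.60, 0.02 and -0.15 for WT and 0.11, 0.29 and 0.33 for Apert, in the same order of replicates. Without WT replicate 1 the members' median log2 fold change was 0.32, and without WT replicate 2 it was 0.73.

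Genes of mitosis and of DNA replication were described from lists of named genes, chosen with earlier results of these data known. Of 20 mitosis and proliferation genes, all tested, 11 rose and none fell, where 0.398% of all genes tested rose and 0.0525% fell. Those that rose were Mki67, Top2a, Ccnb1, Ccnb2, Bub1, Cenpe, Cenpf, Kif11, Kif23, Nusap1 and Prc1. The median of the 20 was 0.89 on the log2 scale. The proliferation marker Mki67 was at 519, 818 and 646 CPM in WT and at 1237, 1293 and 1609 CPM in Apert (1.06, standard error 0.16, adjusted p = 0.00543). In the edgeR fits with GC correction and without WT replicate 3 none of these genes was called. In those fits 16 and 13 of them had unadjusted p below 0.05, against 1049 and 1376 of all genes tested. Without WT replicate 1 or 2 the calls were 3 and 7, where 15 and 23 of all genes were called. Without Apert replicate 2 or 3 they were 2 and 1, where 2 and 11 of all genes were called. With totals alone they were 5, where 41 of all genes were called. In the same order, 13, 18, 14, 15 and 13 of the list had unadjusted p below 0.05. Of all genes tested, 1133, 1124, 1315, 1244 and 1837 did so. DESeq2 called 12, where it called 1.21% of all genes higher, and limma-voom 10, where it called 68 of all genes. Of 31 replication machinery genes none passed, and 9 had unadjusted p below 0.05, all higher, against 6.35% of all genes tested in that direction. The median of the 31 was 0.33 (24 above 0 and 7 below, from -0.38 to 0.83). DESeq2 called 1 of them (Pola1) and limma-voom 0. Pola1, the catalytic subunit of the primase-polymerase, was at 0.62 (standard error 0.18, adjusted p = 0.152) and the ribonucleotide reductase gene Rrm1 at 0.52 (standard error 0.17, adjusted p = 0.240). WT replicate 1 was the lowest WT library in 16 of the 20 mitosis genes and in 25 of the 31 replication genes. It was also lowest in 11 of 15 tested cartilage genes and 5 of 6 tested erythroid genes. Of nucleotide excision repair genes it was lowest in 4 of 13, and of tested p53 targets in 4 of 14. The part of the mitosis and replication genes in the members' values was not tested.

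**Figure D3:**
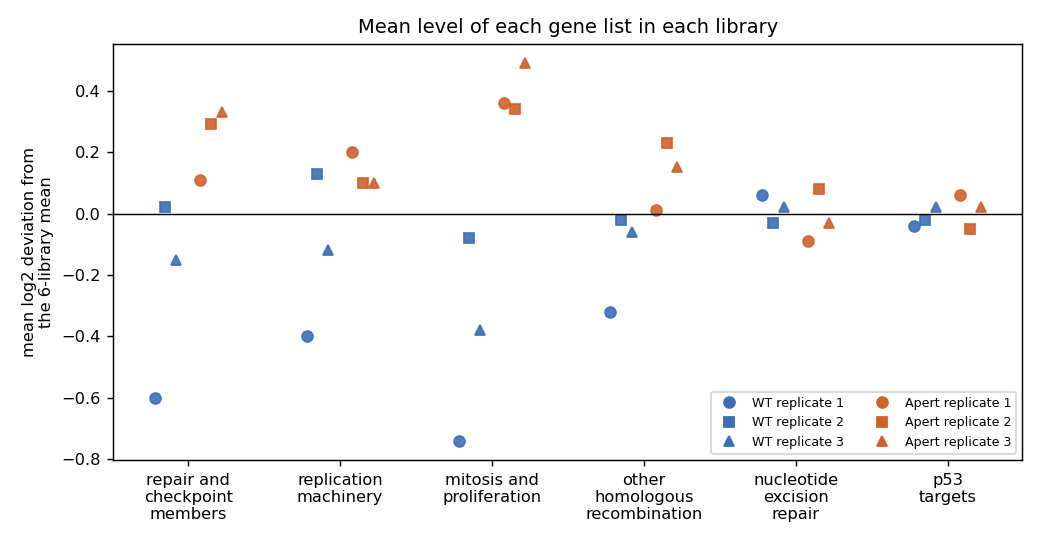
Mean level of 6 gene lists in each of the 6 libraries, as the mean over tested genes of log2(CPM + 1) minus that gene's mean over the 6 libraries (circles, squares and triangles: replicates 1, 2 and 3). WT replicate 1 is lowest for the members (-0.60), for replication (-0.40), for mitosis (-0.74) and for other homologous recombination (-0.32). All 6 libraries lie within -0.09 to 0.08 for nucleotide excision repair and p53 targets.

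The other genes of the members' own pathways were listed in the same way. Over all genes tested 0.398% rose, and 6.35% were higher at unadjusted p below 0.05. Of 29 other genes of recombination and double-strand break ends 1 rose and 28 did not pass, 9 had unadjusted p below 0.05, all higher, and the median was 0.25. The one that rose was Polq, a DNA polymerase known for an end-joining route that competes with recombination. It was at 14.9, 15.3 and 19.0 CPM in WT and at 29.9, 31.0 and 39.8 CPM in Apert (1.03, standard error 0.21, adjusted p = 0.0377). Its groups were far apart, yet the call ended with totals alone (0.87, 0.0776) and with GC correction (0.94, 0.118). The call also ended without WT replicate 1 (0.97, 0.186), 2 (0.98, 0.134) or 3 (1.15, 0.109) or Apert replicate 2 (1.07, 0.191) or 3 (0.88, 0.246). In the same order, these fits called 41, 4, 15, 23, 0, 2 and 11 of all genes. Of 11 other Fanconi genes, none was called by edgeR, 1 had unadjusted p below 0.05 and the median was 0.04. The deubiquitinase gene Usp1, which releases FANCD2, was at 0.48 (adjusted p = 0.234) and the core subunit gene Fancg at -0.58 (adjusted p = 0.590). Of 15 other base excision genes 13 were tested, none had p below 0.05 even without adjustment, and the median was -0.03. The ligase gene Lig3 was at -0.31 (adjusted p = 0.532) and the glycosylase gene Nthl1 at -0.79 (adjusted p = 0.694). Of 6 other mismatch repair genes none was called and 2 had unadjusted p below 0.05, with a median of 0.40. Of 15 other checkpoint genes none was called and 3 had unadjusted p below 0.05, with a median of 0.12. The fork protein gene Wdhd1 was at 0.57 (adjusted p = 0.251) and the ATR activator gene Etaa1 at 0.54 (adjusted p = 0.266). DESeq2 and limma-voom likewise called 0 of these other Fanconi, base excision, mismatch repair and checkpoint genes.

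Nucleotide excision repair had a median of -0.01 over 13 genes and non-homologous end joining of 0.22 over 10, and in neither list was a gene below 0.05 before adjustment or called by DESeq2 or limma-voom. Examples were Xpa at 0.47 (adjusted p = 0.499) and Ercc3 at -0.42 (0.569), and in end joining Lig4 at 0.61 (0.461) and Paxx at -1.28 (0.494). Targets of p53, the transcription factor that damage signalling activates, had a median of 0.06 over the 14 tested of 18, and none had unadjusted p below 0.05 or was called by DESeq2 or limma-voom. Plk2 was at 0.33 (adjusted p = 0.578) and Perp at 0.82 (0.722). The p53 inhibitor gene Mdm2, also a p53 target, had a mean of 80.6 ± 10.1 CPM among WT libraries and of 78.8 ± 14.3 CPM among Apert libraries (SD, n = 3 each). The cell cycle inhibitor gene Cdkn1a had 5.82 ± 2.92 and 4.78 ± 2.83 CPM. Both overlapped between the groups (-0.03, adjusted p = 0.966, and -0.30, adjusted p = 0.865). Mdm2 and Cdkn1a were chosen after their values were seen.

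Markers of other cells that a captured region could hold were summed in each library. Of 12 tested genes of perichondrium and fibrous mesenchyme 2 rose (Col3a1 and Ogn) and 10 did not pass, with 7 at unadjusted p below 0.05, all higher, 3 below 0 on the log2 scale and 3 called by DESeq2. The median log2 fold change of the 12 was 0.52. Over all genes tested 0.398% rose, and DESeq2 called 1.21% higher. At unadjusted p below 0.05, 6.35% of all genes tested were higher and 5.01% lower. Their mean log2 deviations from the mean over 6 libraries were -0.33, -0.07 and -0.29 in WT. In Apert these were 0.17, 0.13 and 0.39, without overlap. The 14 listed summed to 6553 to 8527 CPM in WT and 8255 to 9014 CPM in Apert, which overlap. Glia markers, 6 of 7 tested and all below 0, summed to 365 to 435 CPM in WT and 277 to 329 CPM in Apert, with Foxd3 at 0 in all libraries. None was called by edgeR, 2 had unadjusted p below 0.05, and DESeq2 called 1. The cartilage list had a median of -0.21 and edgeR called none of its 15 tested genes, with 3 at unadjusted p below 0.05, all lower, and 1 called by DESeq2. Epithelial markers (Krt14 and Cdh1 at 0) summed to 2.59 CPM at most and endothelial markers to 9.08 CPM at most. Leukocyte markers reached at most 15.7 CPM, neuron markers 13.4 CPM, skeletal muscle markers (Myog, Myod1 and Ckm at 0) 39.2 CPM, osteoblast markers (Ibsp and Dmp1 at 0) 97.2 CPM and erythroid genes 93.3 CPM. No gene of these last lists was called by edgeR, DESeq2 or limma-voom, and 1 each of the endothelial, leukocyte, muscle and erythroid genes had unadjusted p below 0.05. Whether the mix of cells bears on the repair genes was not tested.

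**Figure D4:**
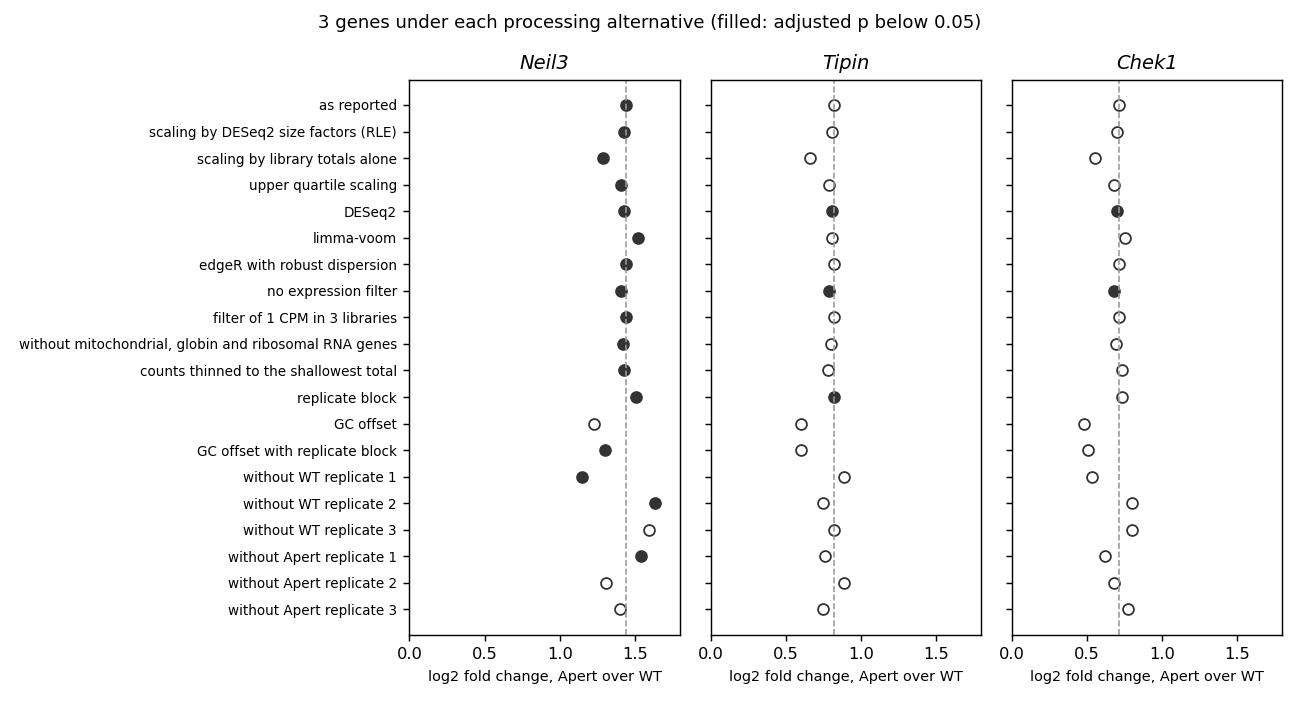
Log2 fold change (Apert over WT) of Neil3, Tipin and Chek1 as reported and under 19 alternative fits, with filled points for an adjusted p below 0.05 and a dashed line at the reported value. Neil3 stays between 1.15 and 1.63 with most points filled, while Tipin and Chek1 stay above 0 throughout and are filled only in a few fits.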

How the data were processed

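RNA was read from 6 libraries, 1 per embryo, 3 WT and 3 Apert, from separate mice per the series design text, each amplified from 15 ng of RNA and sequenced as paired reads of 100 bp, per the labels' protocols. The authors deposited raw fragment counts for each Ensembl gene, made with featureCounts 1.4.4 over exons of Ensembl release 75 (GRCm38, mm10), unstranded, per the file headers. The submitters' processing notes also name cutadapt and STAR 2.5.2b. Overlapping genes on either strand are therefore not separated, and 8 of the 29 members share exon bases with another gene. Amplification from small amounts can distort genes by GC content and length. No molecular identifiers are described, so floors cover counting error only.

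Of 38924 genes, 37607 had a symbol, and no column was left unused. The exon length per gene is the files' own Length column. In R 4.3.3, edgeR 4.0.16 (filterByExpr, 13333 genes kept; scaling by the trimmed mean of M values, TMM; glmQLFit and glmQLFTest) tested Apert against WT, with Benjamini-Hochberg adjustment at 0.05 over all genes. A standard error is the log2 fold change divided by the square root of F. CPM values use TMM-scaled totals. Alternatives were run with DESeq2 1.42.0, limma 3.58.1 and an offset on GC content smoothed with mgcv 1.9.3 (GENCODE M21 transcripts, 98.9% of tested genes). The members and lists were chosen with earlier results of these data known. Values by library are given for every called member, the 2 of each pathway with the smallest p and those whose groups did not overlap, and for some others beside them. For each other repair, checkpoint, p53, replication and mitosis list, called genes are named, or else 2 genes. Those 2 have the smallest p at a mean of at least 1 CPM. The exception is the list of other mismatch repair genes, which is given by its counts. The lists of cell markers are given by sums and counts, with called genes named. Of the called mitosis and mesenchyme genes only Mki67 is given with values. Some listed genes are not reported here.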

Additional observations from a re-analysis of the deposited data

How the results depend on the processing

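The same direction was found in all 19 alternative fits for 23 of the 27 tested members. The 4 others were near 0: Palb2 turned to 0.01 with limma-voom and 0.18 without WT replicate 2 (-0.27 to 0.18 over the fits without 1 library). Fancl turned to -0.04 with totals alone, -0.12 with the GC offset and -0.14 with GC offset and replicate block (-0.21 to 0.28 without 1 library). Msh6 turned to -0.08 with totals alone (-0.15 to 0.27 without 1 library), and Atm to -0.03 with totals alone, -0.06 with the GC offset and -0.06 with GC offset and block. All genes called, 60 as reported (53 higher, 7 lower), were 223 with DESeq2, 247 with no expression filter, 4 with the GC offset, 129 at a threshold of 0.10 and 0 to 229 with 1 library left out. Members called, 1 as reported, were 3 with DESeq2, 4 with no filter (Brip1 in addition to the 3 of DESeq2), 0 with the GC offset, 2 at a threshold of 0.10 and 0 to 1 with 1 library left out. The edgeR fits that called no member when 1 library was left out were those without WT replicate 3, Apert replicate 2 or Apert replicate 3. They had 9, 9 and 5 members at unadjusted p below 0.05, against 1376, 1315 and 1244 of all genes tested. The members' median log2 fold change ran from 0.32 to 0.73 with 1 library left out. The 12 called genes of the other repair, checkpoint, replication and mitosis lists were 5 with totals alone and 0 to 12 with 1 library left out. With the GC offset they were 0, with 32 at unadjusted p below 0.05 against 1049 of all genes tested. Without WT replicate 3 edgeR called no gene, with 1376 at unadjusted p below 0.05; the cause of these changes was not tested. A leave-out leaves 2 libraries in 1 group. With totals alone 17 genes were higher and 24 lower, and the median of all genes moved from 0.01 to -0.15.

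No label ties equal replicate numbers to a shared litter or day. Deviations of same-numbered libraries correlated at 0.194, 0.02 and 0.086 (across genes, which are not independent replicates), and not every library correlated best with its own number. With the replicate number as a block, 172 genes and 2 members (Neil3 and Tipin) were called, and with the block and the GC offset together 85 genes and 1 member.

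Depth limits the low members: 1 count was worth 0.0869 to 0.162 CPM, so Neil1, Neil2, Chek2, Fanca and Fanci rest on few counts.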

Other observations

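Rad50, of the complex that senses broken ends, was at 55.8, 76.7 and 70.2 CPM in WT and at 83.8, 93.1 and 116 CPM in Apert (log2 fold change 0.53, standard error 0.17, edgeR adjusted p = 0.221). Its groups did not overlap, and it was chosen after its values were seen. The tested members have long exon sequence, with a median of 5506 bases against 3648 over all genes tested, and a lower GC content, with a median of 46.2% against 48.9%.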
